A study of Mus musculus with 16 samples.

Results

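The genes described here make cholesterol, sense it, or move it into, within and out of cells, and they were followed in messenger RNA from mouse hippocampus. They were taken by name from a list of 35, and 33 were found among the 22572 named genes of the table. These were 17 of the 19 listed genes of synthesis, 6 genes of regulation and 10 of uptake, transport and export. All 33 passed the filter of a mean of at least 1 FPKM (fragments scaled to the length of the transcript and the number of mapped fragments) over the 16 libraries. Msmo1 was present only under its older symbol Sc4mol and Tm7sf2 only in an entry merged with Vps51, so both are described apart and are in no count.

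The tissue came from male C57BL/6 mice, either wild type (WT) or with the knockout written Bgn0/- in the labels (BgnKO below). Bgn lies on the X chromosome and encodes biglycan, a small proteoglycan of the extracellular matrix. For 6 weeks from an age of 3 months the drink was either regular water or a 15% (w/v) solution of fructose. The 4 groups, named WT water, WT fructose, BgnKO water and BgnKO fructose below, hold 4 libraries each. No label says whether each replicate is a different mouse. The p-values therefore measure the spread between these libraries only, which may be technical.

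Bgn itself was at 9.94, 11.7, 17.7 and 24.2 FPKM in WT water and at 5.42, 20.7, 21.2 and 17.2 in WT fructose. In BgnKO it lay between 4.46 and 7.60 on water and between 5.02 and 7.11 on fructose, and the log2 fold averaged over drinks was -1.08 (SE 0.24, limma adjusted p = 0.0168). The WT fructose library at 5.42 lies inside the BgnKO range, so its Bgn level goes against its label. Its sum of meninges and fibroblast markers, 20.1 FPKM, was also the lowest of the 16 libraries. Whether that bears on its Bgn level, and whether its label is right, was not tested. This library is called the library labelled WT fructose replicate 1 below. The sources used here do not say which stretch of Bgn was removed.

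Cholesterol is built from acetyl-CoA through mevalonate, the isoprenoid pyrophosphates, squalene and lanosterol, and in the brain it is made locally, because lipoproteins of the blood do not cross the blood-brain barrier. When membrane sterol falls, SCAP carries the precursor of SREBP2 (the product of Srebf2) to the Golgi, where it is cleaved into a factor that turns on the synthesis genes. INSIG proteins hold that complex back when sterol is plentiful, and the liver X receptors, which sense oxysterols, turn on export genes such as Abca1 and Apoe. Astrocytes are the main source of apolipoprotein E in the brain, and neurons export cholesterol as 24-hydroxycholesterol made by CYP46A1.

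Promoter stretches of 5 of the genes whose values matter below are shown because CCAAT was frequent in promoters of the synthesis genes. They are 3 synthesis genes, a regulator (Insig1) and a transport gene (Npc2), and among the first 3 the sterol core is in Hmgcs1 alone. They come from RefSeq (GRCm38.p6), run 5′ to 3′ on the strand of the gene, and carry in capitals each match to the sterol element core CACNCCAC and to CCAAT, the NF-Y box, on either strand.
Hmgcs1, chr13:119690104-119690320, + strand: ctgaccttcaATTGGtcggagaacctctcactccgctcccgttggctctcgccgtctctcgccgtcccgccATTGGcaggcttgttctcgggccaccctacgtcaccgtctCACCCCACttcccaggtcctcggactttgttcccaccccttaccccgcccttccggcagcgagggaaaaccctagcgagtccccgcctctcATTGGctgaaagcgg
Mvd, chr8:122443435-122443492, - strand: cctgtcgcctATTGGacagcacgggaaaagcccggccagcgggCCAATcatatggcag
Idi1, chr13:8885551-8885605, + strand: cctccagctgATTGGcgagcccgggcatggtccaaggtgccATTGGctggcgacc
Insig1, chr5:28071186-28071411, + strand: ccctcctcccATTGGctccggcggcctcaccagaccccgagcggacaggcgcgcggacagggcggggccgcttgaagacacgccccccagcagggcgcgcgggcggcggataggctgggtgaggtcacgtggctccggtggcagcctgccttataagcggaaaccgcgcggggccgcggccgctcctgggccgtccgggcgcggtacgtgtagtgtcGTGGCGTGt
Npc2, chr12:84773113-84773197, - strand: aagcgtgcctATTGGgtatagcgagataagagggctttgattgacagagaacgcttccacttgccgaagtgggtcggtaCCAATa
In these stretches ATTGG is CCAAT read on the other strand. Counted from the RefSeq start, the Hmgcs1 stretch covers bases -247 to -31, with the sterol core at -136 to -129 between CCAAT boxes at -176 to -172 and -45 to -41. The Mvd boxes lie at -60 to -56 and -27 to -23. The sterol core of Insig1 lies on the other strand at -9 to -2. GENCODE vM21 puts the starts of Idi1, Insig1 and Npc2 further upstream than RefSeq does, so all of the Idi1 stretch and parts of the other two lie inside its gene models.

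A RefSeq promoter of 250 bases before to 50 after the start was matched for 28 of the 35 listed genes. CCAAT occurred in 14 of 16 synthesis promoters, which include those of Msmo1 and Tm7sf2, or 87.5%, against 37.9% of all 27025 promoters of that length. GGGCGG, the Sp1 box, was also in 14 of 16, against 35.9% of all. The sterol core was in 2 of 16 synthesis promoters (Acat2 and Hmgcs1), or 12.5%, against 6.12% of all. Among the regulators CCAAT and GGGCGG were each in 3 of 6 promoters, and among the transport genes CCAAT was in 3 of 6 and GGGCGG in 5 of 6. The LXR direct repeat was searched only as the exact letters AGGTCA, any 4 bases, AGGTCA. It was in none of the 28 and in 3 of the 27025, or 0.0111%. A pattern this rare cannot tell whether these promoters hold LXR elements with other letters. A match describes letters in the window and is not a measured site. Fdps, Fdft1, Sqle, Stard4, Npc1, Abcg1 and Abcg4 were not in the promoter table.

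In level, Apoe stood far above the rest, at a mean of 1928 FPKM over the 16 libraries. Cyp46a1 followed at 87.0, Hmgcs1 at 75.8, Lrp1 at 63.9 and Srebf2 at 63.7 FPKM. The lowest were Fdps at 3.03, Nr1h3 at 1.51 and Idi1 at 1.32 FPKM. Lrp1 and Srebf2 are neighbours in this order whose library values overlap. So are Lss at 4.82 and Abca1 at 4.80. The synthesis genes thus spanned from Idi1, with 46.0% of named genes below it, to Hmgcs1, with 96.1% below it.

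Averaged over drinks BgnKO had lower transcripts of Hmgcs1, Mvd, Fdps, Fdft1, Sqle and Stard4 than WT, and higher transcripts of Npc2 and Abca1. These 8 of the 33 genes passed the test (limma on log2(FPKM + 1), adjusted over all 12648 genes, threshold 0.05), against 631 of all genes tested, or 4.99%. The 6 lower ones stand beside 2.87% of all genes called lower, and the 2 higher ones beside 2.12% called higher. All 5 called synthesis genes were lower. The other lower call carries sterol within cells, and the higher calls take cholesterol out of the lysosome (Npc2) or the cell (Abca1). For Npc2 the average combines a log2 fold of 0.03 on water with 0.50 on fructose. In bulk tissue, fewer cells of a type and less RNA per cell cannot be told apart.

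Among the synthesis genes 15 of 17 lay lower in BgnKO, with a median log2 fold of -0.12, while 51.9% of all tested genes lay lower and their median was -0.01. Both rescaling the libraries and quantile normalization left that split at 15 of 17. Among the regulators 5 of 6 lay lower (4 of 6 after rescaling) and 0 were called by limma, 2 of them with an unadjusted p under 0.05, against 21.1% of all genes. The transport genes split evenly, 5 lower and 5 higher, or 4 and 6 after rescaling.

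Libraries with replicate number 1 stood apart from the others in all 4 groups, so the calls for BgnKO against WT are also given with a term for replicate 1 and within replicates 2 to 4. Since every group holds 1 such library, the term leaves the folds as they are and changes the spread. With it 16 of the 33 genes were called by limma, 12 lower and 4 higher, against 18.0% of all genes. Within replicates 2 to 4 alone 13 were called, 10 lower and 3 higher, against 12.6%. There 14 of 17 synthesis genes, 4 of 6 regulators and 4 of 10 transport genes lay lower. The count of 8 became 4 when either the third WT water or the fourth WT fructose library was left out. It became 5 when the second library of WT fructose or of BgnKO water was.

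Hmgcs1, which encodes the cytosolic synthase that makes HMG-CoA, was at 98.98, 81.9, 87.9 and 76.9 FPKM in WT water, 92.03, 75.7, 74.03 and 79.5 in WT fructose, 77.7, 65.97, 70.3 and 65.7 in BgnKO water and 69.6, 66.1, 64.7 and 64.9 in BgnKO fructose. The BgnKO libraries were lower than WT on each drink, apart from BgnKO water replicate 1, which passed the lowest WT water library. The mean in BgnKO was 81.7% of WT, a log2 difference of -0.28 (SE 0.06, limma adjusted p = 0.0145), with 8 of 8 BgnKO libraries below the WT mean of their drink. Replicate 1 was the highest library of every group, and within replicates 2 to 4 the BgnKO and WT values did not overlap. The exons of Hmgcs1 (chromosome 13, 119690379 to 119708260 in GENCODE vM21) face Gm48342 on the other strand over 12.1% of their bases, and how strand was treated in the counting is not stated, so reads of such a pair cannot be told apart.

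Mvd encodes mevalonate diphosphate decarboxylase, which turns the last mevalonate intermediate into isopentenyl pyrophosphate. It was at 9.26, 10.01, 12.5 and 10.8 FPKM in WT water, 9.67, 9.71, 12.03 and 11.4 in WT fructose, 7.66, 7.63, 8.62 and 9.43 in BgnKO water and 8.12, 7.90, 9.75 and 9.09 in BgnKO fructose. The groups overlapped slightly, since BgnKO water replicate 4 and BgnKO fructose replicate 3 lay above WT water replicate 1. The mean was 79.8% of WT, with a log2 difference of -0.29 (SE 0.07, limma adjusted p = 0.0270) and 8 of 8 BgnKO libraries on the lower side. It missed the threshold in 6 of the 16 fits that left out 1 library. Its adjusted p was then 0.0563 and 0.0521 without the third and the fourth WT water library. It was 0.0576 and 0.0626 without the third and the fourth WT fructose library, and 0.0523 and 0.0547 without the first and the second of BgnKO water.

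Idi1, the isomerase that converts isopentenyl to dimethylallyl pyrophosphate, was the lowest of the 33 genes. Its values were 2.23, 1.25, 1.55 and 1.38 FPKM in WT water, 1.60, 1.44, 1.38 and 1.45 in WT fructose, 1.71, 0.769, 0.821 and 0.953 in BgnKO water and 1.08, 1.02, 1.38 and 1.04 in BgnKO fructose. Replicates 2 to 4 of BgnKO water were the lowest 3 of the 16 libraries, while BgnKO water replicate 1 lay above 7 of the 8 WT libraries. Its log2 fold was -0.28 (SE 0.09), with a limma adjusted p of 0.0976, and 0.0190 with the term for replicate 1. At this level log2(FPKM + 1) understates a change: the mean in BgnKO was 71.5% of WT. Idi1 shares 27.1% of its 31-base words with other genes, among them 47 pseudogenes, so its value is uncertain.

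The other early enzymes did not pass. Acat2, the cytosolic thiolase, spanned 7.85 to 10.5 FPKM in WT and 8.49 to 10.2 in BgnKO, with a log2 fold of -0.03 (95% interval -0.15 to 0.08). It shares 43.7% of its words with Acat3. Mvk, mevalonate kinase, had a log2 fold of -0.12 (95% interval -0.27 to 0.03), and Pmvk, phosphomevalonate kinase, of 0.01 (95% interval -0.08 to 0.09). For Mvk the average combines -0.22 on water, where the BgnKO libraries were all below those of WT, with -0.03 on fructose.

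Fdps, the synthase of farnesyl pyrophosphate, was at 3.90, 3.64, 3.24 and 3.13 FPKM in WT water, 3.54, 3.04, 3.51 and 3.76 in WT fructose, 2.36, 2.61, 2.99 and 2.35 in BgnKO water and 2.91, 2.61, 2.53 and 2.40 in BgnKO fructose. All 8 BgnKO libraries, up to 2.99, lay below all 8 WT libraries, from 3.04 upward. The mean was 74.8% of WT, a log2 difference of -0.31 (SE 0.06, limma adjusted p = 0.00462). Fdps shares 27.9% of its words with 8 other genes, 24.6% with Gm43738 alone, so reads of copies could be mixed into it.

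Fdft1 encodes squalene synthase, the first enzyme committed to sterols. Its values were 29.3, 26.6, 30.9 and 27.9 FPKM in WT water, 25.2, 26.9, 30.6 and 29.6 in WT fructose, 24.7, 22.5, 23.3 and 23.2 in BgnKO water and 20.5, 22.7, 23.8 and 18.7 in BgnKO fructose. Here too no BgnKO library, the highest at 24.7, reached a WT library, the lowest at 25.2, which is the library labelled WT fructose replicate 1. The mean was 79.1% of WT, a log2 difference of -0.33 (SE 0.06, limma adjusted p = 0.00346). Fdps and Fdft1 are the only 2 of the 33 genes with no overlap of the 8 and 8 libraries on the lower side, beside 0.696% of all genes. There were 0 on the higher side, beside 0.490%. Fdft1 (chromosome 14, 63145150 to 63179578) faces Ctsb on the other strand over 18.3% of its exonic bases, and Ctsb lay at 0.03 on the log2 scale (SE 0.05, limma adjusted p = 0.744). Fdft1 shares 31.9% of its 31-base words with 2 other genes, 17.6% with Ctsb, and 1 of the 2 is a pseudogene. Reads of these genes could be mixed into its value, as for Fdps.

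Sqle, squalene epoxidase, was at 26.1, 26.5, 28.01 and 24.1 FPKM in WT water, 25.1, 24.8, 23.9 and 26.4 in WT fructose, 23.4, 21.4, 23.7 and 21.9 in BgnKO water and 20.8, 24.1, 22 and 22.8 in BgnKO fructose. The BgnKO values lay lower with some overlap, since BgnKO fructose replicate 2 reached the level of the lowest WT libraries. The mean was 87.9% of WT, a log2 difference of -0.18 (SE 0.04, limma adjusted p = 0.0320), with 8 of 8 on the lower side. With 1 library left out the call ended in 7 of 16 fits. Its adjusted p was 0.0620 and 0.0713 without the second and the third WT water library, and 0.0570 and 0.0727 without the second and the fourth of WT fructose. It was 0.0637 and 0.0626 without the second and the fourth of BgnKO water, and 0.0622 without the third of BgnKO fructose. With quantile normalization it was 0.0519.

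**Figure D1:**
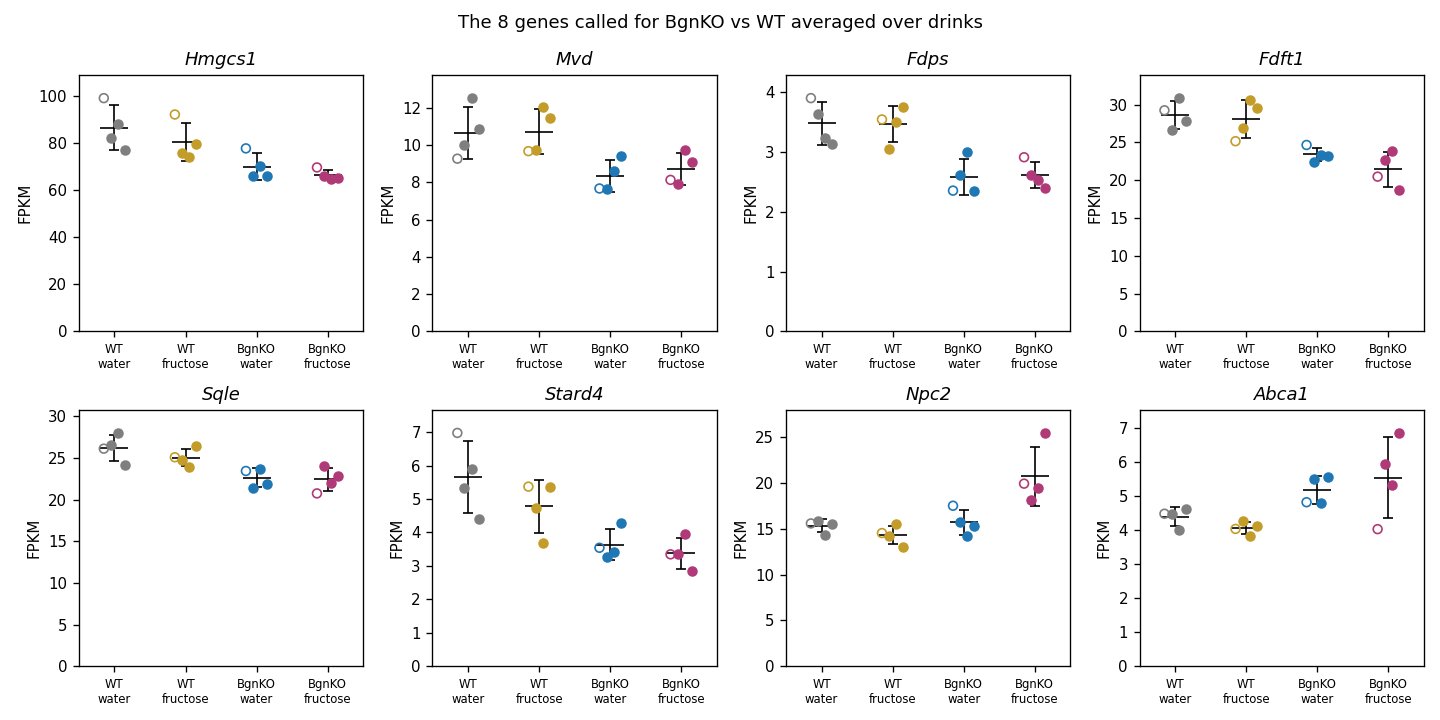
FPKM (y axis, from 0) in each library of the 4 groups for the 8 genes called for BgnKO against WT averaged over drinks. Points are libraries, open for replicate 1, and bars show the mean ± SD (n = 4). In Fdps and Fdft1 the 8 BgnKO points lie below the 8 WT points, while in Npc2 only the BgnKO fructose points rise above the rest.

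Ggps1, which makes geranylgeranyl pyrophosphate and so takes farnesyl units away from sterols, was at 16.7, 15.6, 17.2 and 15.5 FPKM in WT water, 14.1, 16.3, 15.4 and 16.7 in WT fructose, 14.5, 14.3, 13.8 and 13.2 in BgnKO water and 11.7, 15.3, 15.4 and 13.2 in BgnKO fructose. The 4 BgnKO water libraries were all below the 4 WT water libraries, and on fructose the groups overlapped. Its log2 fold of -0.18 (SE 0.06) missed the threshold (limma adjusted p = 0.0772; 0.0247 with the term for replicate 1).

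Hsd17b7 encodes the 3-ketosteroid reductase of the demethylation steps after lanosterol. It was at 7.05, 5.04, 4.57 and 4.83 FPKM in WT water, 6.31, 4.40, 4.15 and 4.91 in WT fructose, 5.51, 3.75, 4.22 and 3.84 in BgnKO water and 4.45, 3.14, 3.22 and 2.81 in BgnKO fructose. Replicate 1 was the highest library of all 4 groups. Among the others BgnKO fructose held the lowest values, from 2.81 to 3.22. Its log2 fold was -0.34 (SE 0.10). The limma adjusted p was 0.0711, which was 9.22e-05 with the term for replicate 1 and 0.00349 within replicates 2 to 4.

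The remaining enzymes after squalene moved little in the average over drinks. Their log2 folds were -0.04 for Lss, lanosterol synthase, -0.10 for Cyp51, lanosterol demethylase, and -0.12 for Nsdhl, a sterol dehydrogenase. Ebp, the sterol isomerase, had -0.03, Sc5d, the sterol desaturase, 0.00 and Dhcr7, which reduces the last double bond of one branch, -0.01. None of these 6 was called, and the 95% intervals reached at most from -0.24 (Cyp51) to 0.13 (Ebp and Sc5d). The average joins opposite signs on water and fructose for Lss (-0.12 and 0.03), Ebp (-0.09 and 0.03), Sc5d (-0.08 and 0.09) and Dhcr7 (-0.08 and 0.06). Cyp51 (-0.15 and -0.05) and Nsdhl (-0.15 and -0.09) were lower on both drinks. On water the BgnKO libraries of Nsdhl were all below those of WT. Nsdhl lay below the WT mean in 8 of 8 BgnKO libraries, with a limma adjusted p of 0.197. The entry Sc4mol (Msmo1, a sterol methyl oxidase) lay at -0.18 on the log2 scale (SE 0.06, limma adjusted p = 0.0966 and 0.0166 with the term), also with 8 of 8 lower. The merged entry of Tm7sf2 and Vps51 had -0.04 (SE 0.07).

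Among the regulators, Srebf2, the source of SREBP2, was at 65.7, 67.8, 68.9 and 65.7 FPKM in WT water, 65.2, 60.6, 67.7 and 73.7 in WT fructose, 60.1, 56.2, 58.6 and 66.2 in BgnKO water and 58.6, 59.8, 63.1 and 61.4 in BgnKO fructose. On water BgnKO replicate 4 reached WT, and on fructose replicate 2 of WT fell within BgnKO. The mean was 90.4% of WT, with a log2 difference of -0.14 (SE 0.05, limma adjusted p = 0.0922; 0.0306 with the term for replicate 1, and 0.0980 within replicates 2 to 4).

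Insig1, which retains the SCAP complex and is itself turned on by SREBP2, was at 44.2, 35.6, 36.9 and 35.5 FPKM in WT water, 37.6, 31.8, 32.04 and 31.9 in WT fructose, 37.1, 28.6, 27.9 and 34.1 in BgnKO water and 32.7, 27, 28.9 and 29.2 in BgnKO fructose. Again replicate 1 was the highest of each group. The log2 difference was -0.21 (SE 0.07), with a limma adjusted p of 0.0967, with the term 0.00278 and within replicates 2 to 4 0.0215. All 8 BgnKO libraries lay below the WT mean of their drink.

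Insig2, the second retention protein, whose transcription does not follow SREBP2 as that of Insig1 does, lay on the other side. It was at 19.8, 15.4, 15.1 and 15.04 FPKM in WT water, 18.9, 16.1, 15.99 and 14.96 in WT fructose, 20.6, 16.5, 16.5 and 17.2 in BgnKO water and 21.9, 17.3, 17.5 and 17.6 in BgnKO fructose. Replicates 2 to 4 of BgnKO, at 16.5 to 17.6, all lay above replicates 2 to 4 of WT, at 15.0 to 16.1. With replicate 1 included the groups overlapped, and the log2 fold of 0.14 (SE 0.07) had a limma adjusted p of 0.311, against 0.00419 with the term and 0.0224 within replicates 2 to 4. Within those 6 against 6 libraries Hmgcs1, Fdps and Fdft1 did not overlap on the lower side, beside 3.73% of all genes. Insig2 and Abca1 did not overlap on the higher side, beside 2.08%.

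Scap, the escort of SREBP2, had a log2 fold of -0.06 (95% interval -0.14 to 0.03). Of the liver X receptors, Nr1h2 spanned 22.6 to 41.4 FPKM in WT and 21.7 to 38.8 in BgnKO, with a log2 fold of -0.10 (95% interval -0.36 to 0.17). Nr1h3 spanned 1.21 to 1.98 and 0.958 to 2.19 FPKM, with a log2 fold of 0.00 (95% interval -0.21 to 0.20).

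**Figure D2:**
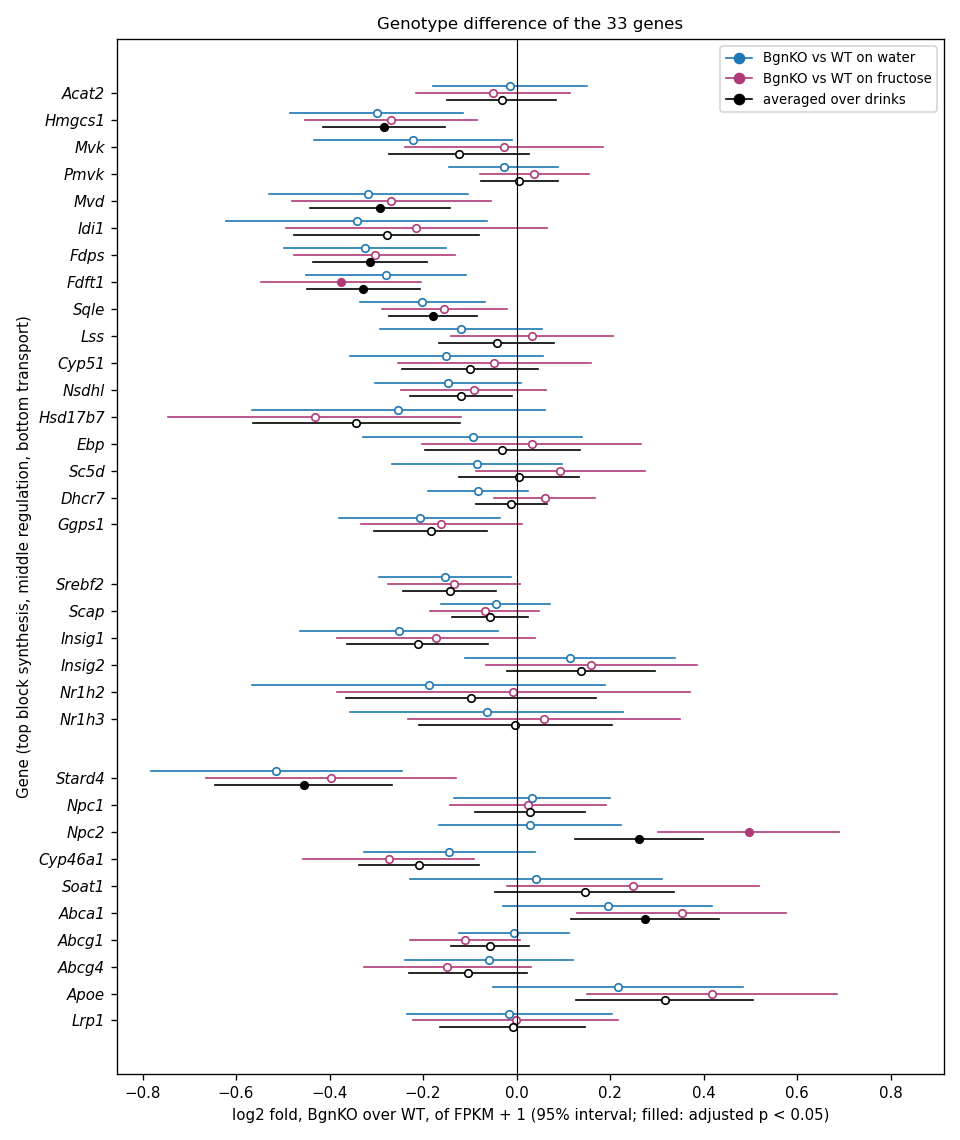
Log2 fold of FPKM + 1, BgnKO over WT (x axis), for the 33 genes (y axis) on water, on fructose and averaged over drinks, with 95% intervals and filled points for limma adjusted p under 0.05. Most synthesis genes lie left of 0, Stard4 lies furthest left at -0.46 averaged over drinks, and Npc2 is right of 0 on fructose at 0.50 and near 0 on water.

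Of the transport genes Stard4, a soluble carrier that takes cholesterol between membranes, had the lowest fold. It was at 6.98, 5.34, 5.89 and 4.40 FPKM in WT water, 5.37, 4.74, 3.67 and 5.35 in WT fructose, 3.54, 3.26, 3.42 and 4.30 in BgnKO water and 3.35, 3.36, 3.96 and 2.84 in BgnKO fructose. Of the BgnKO libraries 6 lay below the lowest WT value of 3.67 FPKM, which is WT fructose replicate 3. The mean was 67.2% of WT, a log2 difference of -0.46 (SE 0.09, limma adjusted p = 0.00759), and the call was kept in 16 of 16 fits that left out 1 library. Hmgcs1, Fdps and Fdft1 were also called in 16 of 16.

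Npc2, the soluble lysosomal protein that hands cholesterol to NPC1, was at 15.6, 15.9, 14.3 and 15.6 FPKM in WT water, 14.5, 14.2, 15.5 and 13.04 in WT fructose, 17.5, 15.7, 14.3 and 15.3 in BgnKO water and 19.9, 18.2, 19.4 and 25.4 in BgnKO fructose. The 4 BgnKO fructose libraries were above all 12 others, and BgnKO water overlapped both WT groups. The log2 fold averaged over drinks was 0.26 (SE 0.06, limma adjusted p = 0.0300), and the call ended in 5 of 16 fits with 1 library left out. The adjusted p was 0.0659 without the third WT water library, 0.0566 and 0.0678 without the second and the fourth of WT fructose, and 0.0566 and 0.0516 without the first and the second of BgnKO water. Its partner Npc1 was at 16.6, 16.1, 14.8 and 14.2 FPKM in WT water, 16.7, 14.5, 14.7 and 15.4 in WT fructose, 16.8, 15.7, 14.05 and 16.8 in BgnKO water and 16.3, 14.7, 14.3 and 17.3 in BgnKO fructose. All 4 groups of Npc1 overlapped, and the log2 fold was 0.03 (95% interval -0.09 to 0.15).

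Abca1, the transporter that loads cholesterol onto apolipoproteins, was at 4.49, 4.49, 4.00 and 4.61 FPKM in WT water, 4.04, 4.26, 3.82 and 4.12 in WT fructose, 4.82, 5.52, 4.81 and 5.58 in BgnKO water and 4.03, 5.96, 5.33 and 6.86 in BgnKO fructose. The lowest BgnKO libraries on water, at 4.81 and 4.82, lay above the highest WT library, at 4.61. BgnKO fructose replicate 1 alone stayed within WT. The log2 fold was 0.27 (SE 0.07, limma adjusted p = 0.0450), with 7 of 8 libraries higher. The call was kept only without BgnKO fructose replicate 1 (0.00278) and lost without any of the other 15 libraries, with adjusted p from 0.0561 to 0.0943. It was also lost after rescaling (0.0557) and with no filter on low FPKM (0.0636).

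Apoe, the main apolipoprotein of the brain, was at 1589, 1623, 1655 and 1544 FPKM in WT water, 1877, 1702, 1955 and 1673 in WT fructose, 1985, 1586, 1718 and 2224 in BgnKO water and 2443, 1918, 2422 and 2928 in BgnKO fructose. BgnKO fructose replicate 4 was the highest of all, and the lowest BgnKO fructose library, at 1918, lay within WT fructose. The mean was 126% of WT, and the log2 fold of 0.32 (SE 0.09) had a limma adjusted p of 0.0523, which was 0.0231 with the term for replicate 1 and 0.0920 within replicates 2 to 4. Apoe passed after rescaling (0.0466) and without the variance trend (0.0409), but not with quantile normalization. With 1 library left out it passed only without BgnKO water replicate 2 (0.0398) or BgnKO fructose replicate 2 (0.0186).

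Cyp46a1, the neuronal cholesterol 24-hydroxylase, was at 97.3, 82.6, 98.03 and 94.1 FPKM in WT water, 91.9, 88.2, 92.9 and 100.5 in WT fructose, 85.8, 79.3, 83.3 and 87.4 in BgnKO water and 82.02, 80.3, 83.8 and 63.6 in BgnKO fructose. On fructose the BgnKO libraries were all below WT, and BgnKO fructose replicate 4, at 63.6, was the lowest of all 16. The log2 fold was -0.21 (SE 0.06, limma adjusted p = 0.0602; 0.0224 with the term and 0.0639 within replicates 2 to 4), with 8 of 8 on the lower side.

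Abcg4, a neuronal and glial sterol transporter, was at 22.2, 19.6, 21.7 and 22.5 FPKM in WT water, 21.1, 20.7, 21.2 and 22.4 in WT fructose, 23.6, 20.3, 20.5 and 18.3 in BgnKO water and 20.9, 18.7, 20.9 and 16.5 in BgnKO fructose. Its groups overlapped, and the log2 fold was -0.10 (95% interval -0.23 to 0.02). Lrp1, a receptor for apolipoprotein E, was at 56.1, 67.9, 59.8 and 66.7 FPKM in WT water, 60.8, 67.4, 71.4 and 62 in WT fructose, 51.5, 62.98, 65.01 and 69.1 in BgnKO water and 55.03, 65.7, 68.6 and 72.6 in BgnKO fructose. Its log2 fold was -0.01 (95% interval -0.16 to 0.15). Soat1, which esterifies cholesterol for storage, had 0.15 (95% interval -0.05 to 0.34), and Abcg1, a transporter to lipoprotein particles, -0.06 (95% interval -0.14 to 0.03).

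On water alone 0 of the 33 genes were called by limma, beside 0.387% of all genes. With an unadjusted p under 0.05 there were 11, all lower, beside 5.33% of all genes. All 17 synthesis genes lay lower in BgnKO on water, also after rescaling and quantile normalization, and 16 of 17 within replicates 2 to 4. Their median was -0.20, against 0.00 for all genes. With the term for replicate 1 there were 3 calls, Hmgcs1, Hsd17b7 and Insig1, beside 0.996% of all genes. Within replicates 2 to 4 there were 0, beside 0.625%. The 4 synthesis genes with the lowest fold on water were Idi1 at -0.34, Fdps and Mvd at -0.32, and Hmgcs1 at -0.30.

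On fructose 2 genes were called. Fdft1 fell by 0.38 on the log2 scale (SE 0.08, limma adjusted p = 0.0195), beside 2.13% of all genes called lower. Npc2 rose by 0.50 (SE 0.09, limma adjusted p = 0.00969), beside 1.63% called higher and 3.76% in either direction. With an unadjusted p under 0.05 there were 11 genes, 8 lower and 3 higher, beside 21.3% of all genes. The synthesis genes lay lower in 12 of 17, with a median of -0.09 against -0.01 for all genes. That median was -0.15 without the library labelled WT fructose replicate 1. It was -0.16, with 10 of 17 lower, when BgnKO fructose replicate 4 was left out as well. Within replicates 2 to 4 alone 11 of 17 lay lower. With the term for replicate 1 there were 12 calls, beside 17.3% of all genes, and within replicates 2 to 4 there were 6, beside 10.9%.

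The Fdft1 call on fructose ended without the third (0.0604) or the fourth (0.0702) WT fructose library, or the fourth of BgnKO fructose (0.0654), while Npc2 was called in 16 of 16 such fits. Fitted on the 2 fructose groups alone neither was called, with limma adjusted p of 0.111 for Fdft1 and 0.0759 for Npc2. The count of 2 became 1 without each of those 3 libraries and 5 without BgnKO fructose replicate 1. Fdps missed the threshold on fructose with an adjusted p of 0.0502 (log2 fold -0.30, SE 0.08). Abca1 had 0.35 (SE 0.10, adjusted p = 0.0711) and Apoe 0.42 (SE 0.13, adjusted p = 0.0734), both by limma.

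The median of the 17 synthesis genes in each library, as the log2 difference to the WT water mean, was 0.05, -0.06, 0.04 and -0.07 in WT water and -0.01, -0.08, 0.01 and 0.02 in WT fructose. It was -0.08, -0.27, -0.22 and -0.12 in BgnKO water and -0.19, -0.11, -0.07 and -0.11 in BgnKO fructose. Of the 8 BgnKO libraries 7 lay below all 8 WT libraries in this median, and BgnKO fructose replicate 3 lay inside the WT range. BgnKO water replicate 1, at -0.0809, was all but level with WT fructose replicate 2, at -0.0789.

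**Figure D3:**
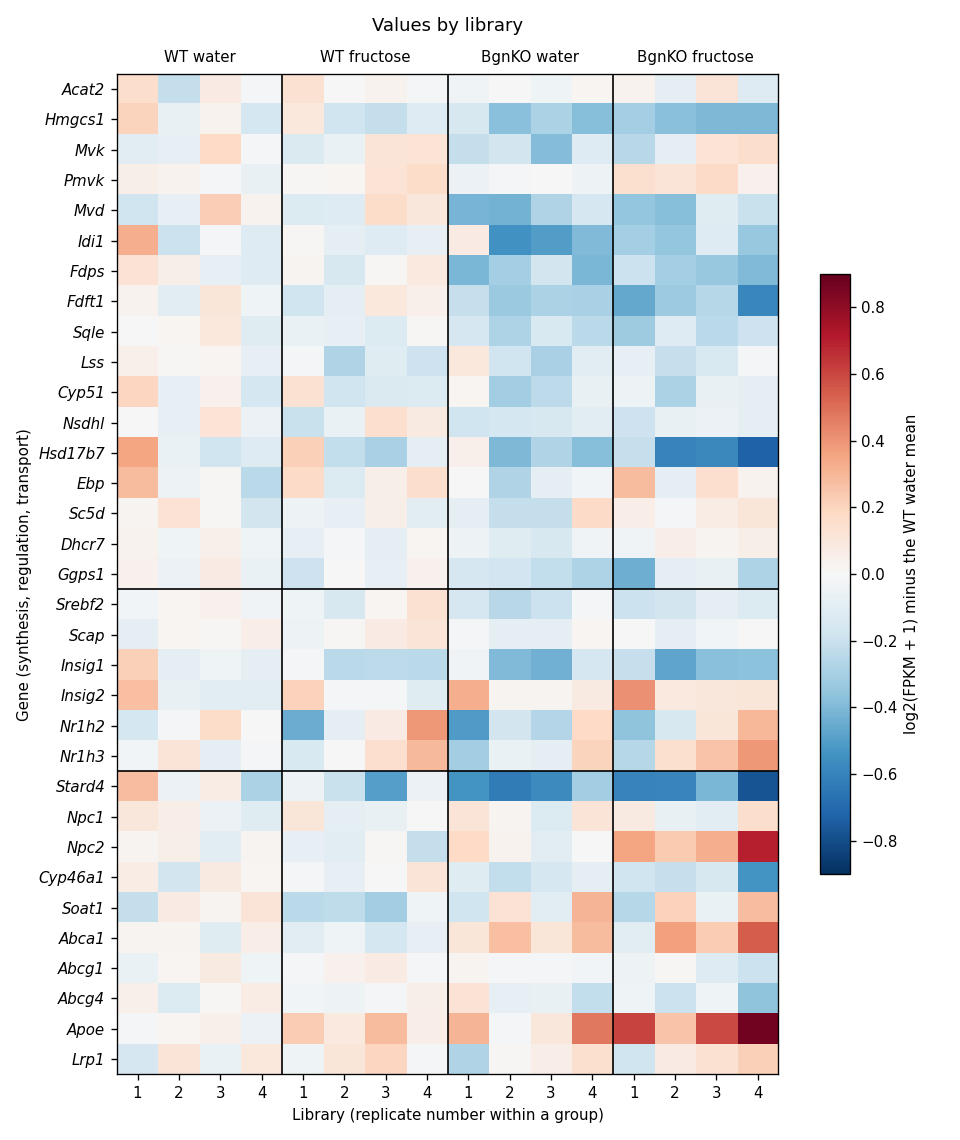
Log2(FPKM + 1) minus the WT water mean (colour) for the 33 genes (rows, in blocks of synthesis, regulation and transport) in the 16 libraries (columns, numbered by replicate within each group). The BgnKO columns are mostly blue in the synthesis block. Apoe lies above the WT water mean in 7 of the 8 BgnKO columns and in all 4 WT fructose columns. Npc2 is red in BgnKO fructose with its deepest colour in replicate 4, at 25.4 FPKM.

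No effect of fructose on the 33 genes passed the threshold. In WT limma called 0 of them, beside 0.00791% of all genes, and 0 had an unadjusted p under 0.05, beside 2.08%. The synthesis genes had a median log2 fold of -0.04 there. A further fit took the replicate number as a block shared by all 4 groups, not as pairs within WT. With it limma again called 0 of the 33 in WT, beside 0.00791% of all genes, and 3 had an unadjusted p under 0.05, beside 6.52%. These were Insig1 (-0.18, SE 0.05, limma adjusted p = 0.746), Soat1 (-0.21, SE 0.07, adjusted p = 0.746) and Lss (-0.14, SE 0.07, adjusted p = 0.749). All 3 were lower on fructose in all 4 same-numbered WT pairs, and so was Abca1. Apoe was higher in all 4, with 1544 to 1655 FPKM on water and 1673 to 1955 on fructose. Its log2 fold in WT was 0.17 (SE 0.13, limma unadjusted p = 0.206 without the block). In BgnKO limma called 0, beside 0.0% of all genes. Npc2 (0.37, SE 0.09), Apoe (0.37, SE 0.13) and Pmvk (0.15, SE 0.05) had an unadjusted p under 0.05, and 12.9% of all genes did. Their adjusted p were 0.318, 0.318 and 0.322. The synthesis median in BgnKO was 0.03. With the shared block limma also called 0 in BgnKO, beside 0.0% of all genes. There 7 had an unadjusted p under 0.05, 1 lower and 6 higher, beside 27.2%. The lower one was Hsd17b7 (-0.28, SE 0.06, limma adjusted p = 0.0605), and Npc2 had an adjusted p of 0.0605 as well. Averaged over genotypes limma called 0, beside 0.00791%, and 3 had an unadjusted p under 0.05, beside 10.8%.

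**Figure D4:**
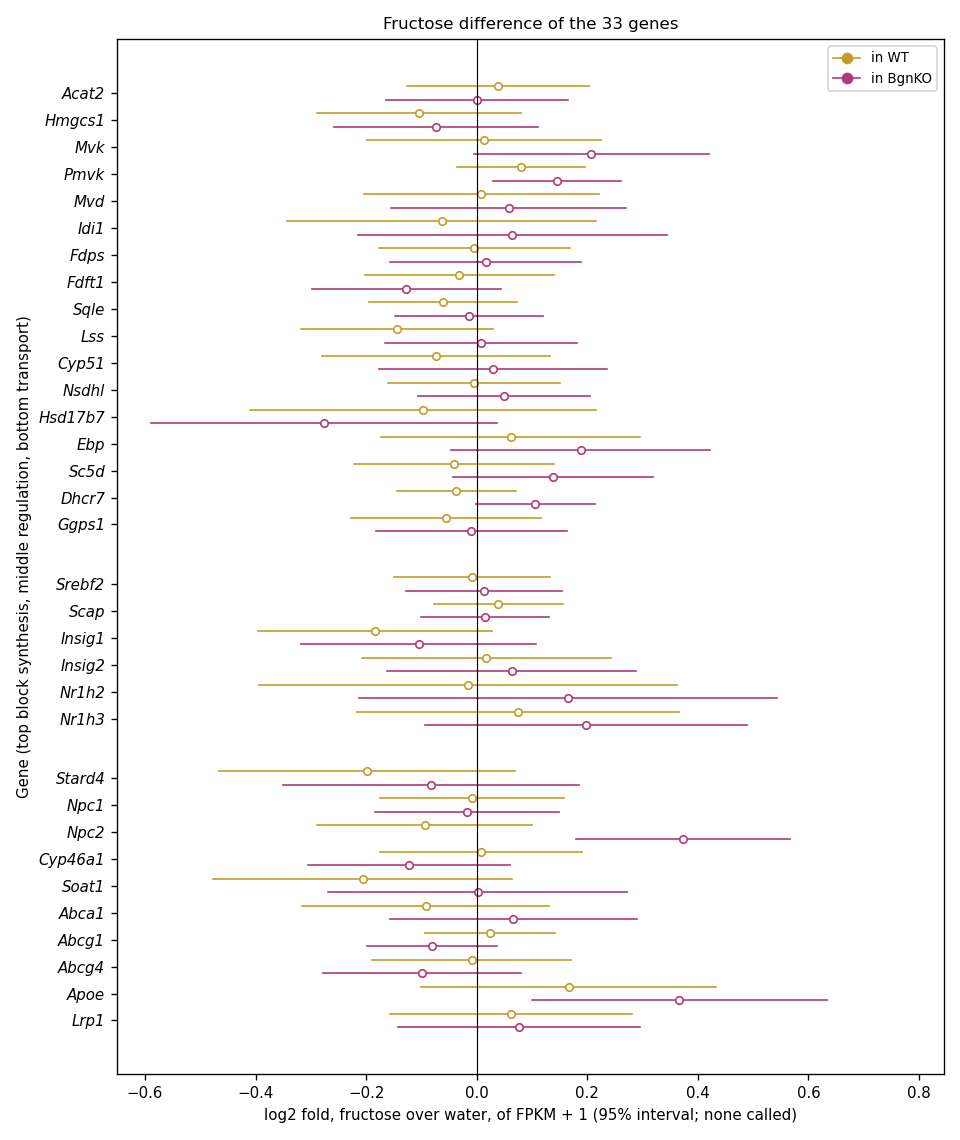
Log2 fold of FPKM + 1, fructose over water (x axis), for the 33 genes (y axis) in WT and in BgnKO, with 95% intervals and open points where limma's adjusted p was not under 0.05. Every point is open, and the furthest from 0 are Npc2 and Apoe in BgnKO, both at 0.37.

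The difference of the fructose effect between the genotypes (the interaction) was called by limma for 0 of the 33 genes, beside 0.00791% of all genes. Npc2 alone had an unadjusted p under 0.05, as did 2.91% of all genes, with an interaction of 0.47 on the log2 scale (SE 0.13, limma unadjusted p = 0.00244, adjusted p = 0.999). In WT Npc2 went from 15.3 ± 0.702 FPKM on water to 14.3 ± 0.995 on fructose, and in BgnKO from 15.7 ± 1.35 to 20.7 ± 3.22 (SD, n = 4 each). For Fdft1 the interaction was -0.10 (95% interval -0.34 to 0.14), and for Stard4 0.12 (95% interval -0.26 to 0.49).

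Replicate 1 differed from replicates 2 to 4 in the same direction in all 4 groups for 14 of the 33 genes. Higher in replicate 1 were Hmgcs1, Lss, Cyp51, Hsd17b7, Ebp, Insig1, Insig2 and Npc1, with mean log2 differences from 0.12 for Npc1 to 0.43 for Hsd17b7. Lower were Mvd, Srebf2, Soat1, Lrp1, Nr1h2 and Nr1h3, from -0.04 for Srebf2 to -0.42 for Nr1h2. The share of all genes that did so is not given, so the 14 are not read as particular to this pathway. Over all tested genes the deviations of replicate 1 from the group means correlated at 0.612 to 0.75 between the groups compared. The labels give no run or day, so what sets replicate 1 apart was not tested. Besides the genes already called, the term for replicate 1 brought in Hsd17b7, Insig1, Insig2, Srebf2, Apoe, Cyp46a1, Idi1 and Ggps1.

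**Figure D5:**
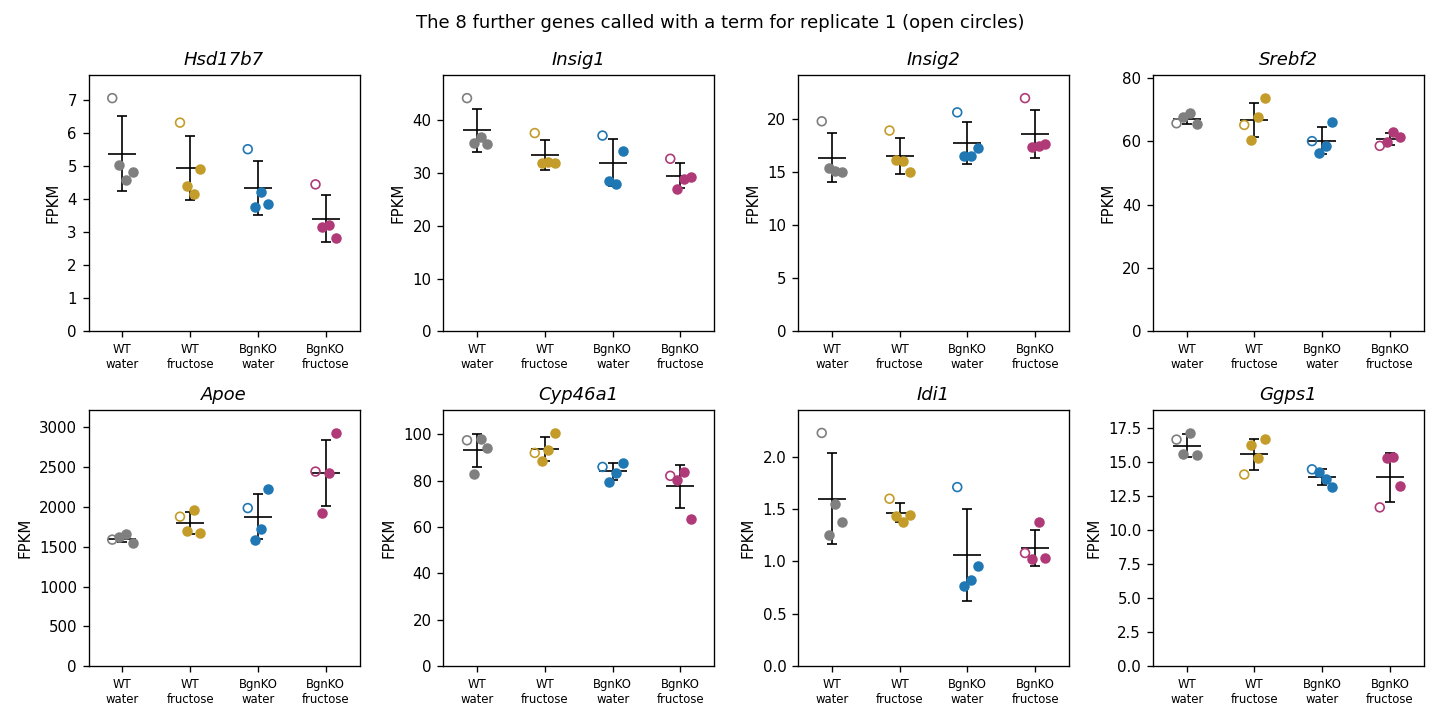
FPKM (y axis, from 0) in each library of the 4 groups for the 8 further genes called for BgnKO against WT with a term for replicate 1. Points are libraries, open for replicate 1, and bars show the mean ± SD (n = 4). In Hsd17b7, Insig1 and Insig2 the open point is the highest of each group, and the filled points of Insig2 at 16.5 to 17.6 in BgnKO lie above those of WT.

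Of the other pathway genes, those of fatty acid synthesis under SREBP lay mostly higher in BgnKO, 8 of 11 tested. Of these 2 were called over both drinks, beside 4.99% of all genes called and 2.12% called higher. Elovl5, a fatty acid elongase, rose by 0.34 (SE 0.06, limma adjusted p = 0.00539), and Scd1, a stearoyl-CoA desaturase, by 0.47 (SE 0.09, adjusted p = 0.00797), each in 8 of 8 libraries. Fads1, a desaturase, had 0.25 (adjusted p = 0.0912). The median of the list was 0.18, against -0.01 for all genes.

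Among 11 tested genes of SREBP processing and sterol sensing 8 lay higher and 1 was called, beside 4.99% of all genes. That was Srebf1, the source of SREBP1, with 0.38 (SE 0.07, limma adjusted p = 0.00408), higher in 8 of 8 libraries. Pgrmc1, a haem-binding membrane protein, had 0.14 (adjusted p = 0.0826). Srebf1 is also the 1 call among 10 tested LXR targets and oxysterol enzymes, where 7 lay higher.

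Of 23 tested other sterol carriers, lipoproteins and receptors 12 lay higher and 1 was called, a share near the 4.99% of all genes. It was Apoc1, an apolipoprotein, with 0.91 (SE 0.17, limma adjusted p = 0.00603). Lpl, lipoprotein lipase, had -0.24 (adjusted p = 0.0590) and Lipa, the lysosomal acid lipase, 0.16 (adjusted p = 0.112). Of 12 tested genes that use isoprenoids 6 lay lower and 6 higher. Limma called 0 of them, and 3 had an unadjusted p under 0.05, near the 21.1% of all genes. Among them were Zmpste24, a protease that processes prenylated proteins (0.30, adjusted p = 0.143), and Dhdds, a subunit of the enzyme that makes dolichol precursors (-0.10, adjusted p = 0.230).

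Markers of hippocampal neurons were present throughout, with Slc17a7 at 506 to 720.3 FPKM and Prox1, of dentate granule cells, at 10.7 to 17.6. All 12 astrocyte markers lay higher in BgnKO over both drinks, 5 of them called beside 4.99% of all genes, and their summed level was 1353 to 1587 FPKM in WT water, 1416 to 1527 in WT fructose, 1409 to 2072 in BgnKO water and 1585 to 2164 in BgnKO fructose. All 9 microglia markers lay higher too, with 0 called by limma and 5 with an unadjusted p under 0.05, beside 21.1% of all genes. Their sum was 184 to 237 and 199 to 251 FPKM in WT, and 187 to 345 and 267 to 348 in BgnKO, each on water and then on fructose.

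Of the 10 neuron markers 7 lay lower, and limma called 0. An unadjusted p under 0.05 was found for 5 of them, 4 lower and 1 higher, beside 21.1% of all genes. Of the 10 markers of hippocampal subfields 7 lay lower and 3 higher, with 1 called, lower, beside 4.99% of all genes. An unadjusted p under 0.05 was found for 5 of these markers, all lower, beside 21.1% of all genes. Among them Wfs1, of CA1 neurons, was at 72.4 to 93.8 FPKM in WT and at 37.8 to 65.2 in BgnKO, while Prox1 overlapped between the groups. Of the 12 oligodendrocyte and myelin markers 8 lay lower and 4 higher over both drinks. Limma called 0 of the 12, and 1, higher, had an unadjusted p under 0.05, beside 21.1% of all genes. On water the 12 summed to 2041 to 2775 FPKM in WT and 1858 to 2282 in BgnKO. On fructose they summed to 2141 to 2888 FPKM in WT and 2187 to 3372 in BgnKO. The part of these cell types in the lower synthesis transcripts and in the higher Apoe, Abca1 and Npc2 was not tested.

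Markers of neighbouring tissue varied more. The 10 choroid plexus markers summed to 2514 to 6054 FPKM in WT water, 233 to 4456 in WT fructose, 803 to 6284 in BgnKO water and 2640.0 to 9195 in BgnKO fructose. The lowest sum is the library labelled WT fructose replicate 1 and the highest is BgnKO fructose replicate 4. The latter also has the highest Apoe, Npc2 and Abca1 of the 16 libraries. Among the genes for which it is the lowest are Cyp46a1, Fdft1 (18.7 FPKM), Stard4 (2.84 FPKM) and Hsd17b7 (2.81 FPKM). Its sum of neuron markers, 2868 FPKM, is the lowest as well. All 10 choroid plexus markers lay higher in BgnKO on fructose, with a median log2 fold of 1.11. Limma called 0 of them, while 3 had an unadjusted p under 0.05, beside 21.3% of all genes. The 10 markers of meninges and fibroblasts were also higher in BgnKO over both drinks. Limma called 0 of these, and 5 had an unadjusted p under 0.05, beside 21.1% of all genes. The lowest sum of these markers, 20.1 FPKM, is again the library labelled WT fructose replicate 1.

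With the lowest and the highest library in these choroid plexus sums both left out, Npc2 on fructose was 0.41 (limma adjusted p = 0.0308) and Fdft1 -0.37 (adjusted p = 0.0406). Over both drinks Sqle missed the threshold (adjusted p = 0.0642), Abca1 was 0.23 (adjusted p = 0.0985), Apoe 0.28 (adjusted p = 0.0986) and Stard4 -0.40 (adjusted p = 0.0342). Fdps was -0.29 (adjusted p = 0.0211) and Hmgcs1 -0.25 (adjusted p = 0.0429).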

How the data were processed

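Polyadenylated RNA of 16 hippocampal libraries, 4 a group, was sequenced on an Illumina instrument, per the labels' protocols. The authors deposited FPKM for 27670 loci. The build mm10 and the tools TopHat, Bowtie, Cufflinks and Cuffdiff are named, per the submitters' processing notes. Versions, roles, annotation, strand setting and scaling are not stated there. FPKM keeps no depth, so read numbers are unknown and no counting interval is given. The 4269 unnamed loci, which hold 46.8 to 70.4% of the FPKM of a library, were left out. Named FPKM summed to 342721 to 376209 per library, and 12343 to 12885 genes reached 1 FPKM. No 2 libraries were closer than 0.179 in root mean square log2 difference, so none is a copy.

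Loci of one name were summed (each of the 33 genes has 1). Limma 3.58.1 in R 4.3.3, with a mean-variance trend, was fitted to log2(FPKM + 1) of 12648 genes, those averaging 1 FPKM or more. It took 1 mean per group without a block, and Benjamini-Hochberg adjustment ran over all genes in each of 7 comparisons (threshold 0.05). It was tested first on simulated data with independent noise, no replicate 1 effect and planted log2 folds of -1 and 1. Those folds are larger than any of the 33 genes, so that test cannot speak for folds of the size found here. Folds of log2(FPKM + 1) understate changes of low genes. "Libraries on a side" compares BgnKO libraries with the WT mean of their drink. Rescaling was by median ratios of the libraries. Positions, overlaps and shared words of 31 bases came from GENCODE vM21 (GRCm38).

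Values by library are given for the 8 synthesis, 3 regulation and 6 transport genes of smallest unadjusted p for BgnKO against WT averaged over drinks, for every called gene, and for Hmgcs1, Sqle, Fdps, Srebf2, Insig1, Abca1, Apoe, Cyp46a1, Lrp1 and Npc1. Other lists are given with up to 3 genes of smallest p. The genes and lists were chosen with earlier results of these data known. Some genes of the pathway are not reported here.

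Same-numbered libraries were checked for pairing by the correlation of their deviations from the group means. For fructose against water it was 0.118 to 0.699 in WT and 0.197 to 0.612 in BgnKO, over 0.1 in every pair. Within replicates 2 to 4 it was 0.003 to 0.135 and -0.042 to 0.314. The labels state no shared batch or litter. For BgnKO against WT it was -0.04 to 0.689 on water and 0.087 to 0.750 on fructose, so not over 0.1 in every pair. Pairs within a genotype were not fitted. The block fit gives each replicate number 1 effect shared by all 4 groups, so it joins WT and BgnKO libraries too. The alternatives tried were the filter, pseudocount, scaling, block, replicate 1, variance trend, locus choice, the 2 groups alone, and leaving out libraries.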

Additional observations from a re-analysis of the deposited data

Results flagged for a closer look

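Of 132 sets of 4 libraries (33 genes in 4 groups), 5 had a library whose gap to the nearest other exceeded Dixon's 95% limit for the share of the group's range, and chance flags about 1 in 20 such sets. All 5 were replicate 1. Cyp51 was at 18.7 FPKM in the library labelled WT fructose replicate 1, against 14.8 to 15.4 in the other 3. Insig1 was at 44.2 FPKM in WT water replicate 1 and at 37.6 in the library labelled WT fructose replicate 1, where the others were at 35.5 to 36.9 and 31.8 to 32.0. Insig2 was at 19.8 FPKM in WT water replicate 1 and at 21.9 in BgnKO fructose replicate 1, where the others were at 15.0 to 15.4 and 17.3 to 17.6.

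Dhcr7 lay below the WT mean in 4 of 4 BgnKO libraries on water (log2 fold -0.08) and above it in 4 of 4 on fructose (0.06). The difference between the drinks, 0.14 on the log2 scale (SE 0.07), had a limma adjusted p of 0.999.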

How the results depend on the processing

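Over 28 settings the 33 genes gave 6320 fold values beside the reported ones. Of these 5937 kept their direction and side of the threshold, 71 gained and 43 lost a call, 269 uncalled folds changed sign, and 0 called folds did. For BgnKO against WT averaged over drinks the count of 8 became 5 with a filter of 5 FPKM, which leaves Fdps, Stard4 and Abca1 untested, 16 with the term for replicate 1, 13 in replicates 2 to 4, and 4 to 10 with 1 library left out. On fructose the count of 2 became 12, 6 and 1 to 5 under the last 3 of these, and 0 with the 2 groups alone (adjusted p = 0.111 for Fdft1 and 0.0759 for Npc2). On water the count of 0 became 3 with the term for replicate 1 and stayed 0 with any 1 library left out. With the replicate number as a block the counts were 17 averaged over drinks, 13 on fructose and 3 on water, and the fructose and interaction counts stayed at 0. The share of all genes called is not given for these block counts of BgnKO against WT. Nor is it given for the filter of 5 FPKM or with 1 library left out. Counts can move with all genes: averaged over drinks, the term for replicate 1 took that share from 4.99% to 18.0%. They are therefore not read as results about the 33 genes. The median of the synthesis genes on fructose, -0.09, was -0.16 with BgnKO fructose replicate 4 and the library labelled WT fructose replicate 1 both left out, and -0.15 to -0.065 with 1 library left out. It was -0.22 to -0.15 on water, -0.06 to -0.01 for fructose in WT and 0.00 to 0.06 for fructose in BgnKO. Where no value above shows a cause, the cause was not tested. Depth is unknown, so whether a count of 0 reflects it cannot be said.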
